A study of Homo sapiens with 2 samples.

Results

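The zinc finger genes of human chromosome 19 were examined in A549 cells, an established human line from a lung adenocarcinoma (non-small cell lung cancer). Members were all genes on chromosome 19 with a RefSeq coding transcript in the files and a current symbol that begins with ZNF. There were 241 such genes among 18813 coding genes, and 2 of the 241 (ZNF559-ZNF177 and ZNF816-ZNF321P) are read-through genes that join a pair of neighbours. RNA was sequenced in 1 library per group: A549 cells carrying shLacZ, a hairpin to a bacterial gene, and A549 cells carrying shPSPC1, a hairpin to the gene of an RNA-binding protein of paraspeckles. The shLacZ library is called the control and the shPSPC1 library the knockdown. Both came from the same line, grown with 10% serum and 1% penicillin and streptomycin. The sources used here do not say how many hairpins or clones were used, or whether the cells were pooled.

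Most chromosome 19 ZNF genes encode proteins with an array of C2H2 zinc fingers, each of which contacts a few bases of DNA, and a KRAB domain near the amino end. The KRAB domain recruits TRIM28 (KAP1), which brings the histone methyltransferase SETDB1, HP1 proteins and the NuRD complex, and many of these proteins are known to silence transposable elements. The genes arose by tandem duplication and lie in clusters, so neighbours are often close paralogs.

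The files give an FPKM for each transcript, its fragments divided by its length in kilobases and by the depth of the library. By a fit to the intervals, FPKM was scaled to some 56200000 (control) and 57100000 (knockdown) fragments, and 1 FPKM over 2000 bases stood for about 103 and 105 fragments. PSPC1 itself stood at 31.5 ± 1.25 FPKM in the shLacZ library and 17.7 ± 0.858 in the shPSPC1 library, 56.3% of the control. Values after ± are half-widths of 95% Cufflinks intervals and cover error within a library only. All 6 epithelial markers were at 1 FPKM or more, led by KRT18, while 0 of 5 endothelial and 0 of 5 fibroblast markers were, and of 5 leukocyte markers CD14 alone was. Epithelial markers summed to 3708 FPKM (control) and 2920 FPKM (knockdown). Leukocyte markers summed to 2.51 and 2.74 FPKM, with CD3E listed at 0 in both, fibroblast markers to 0.839 and 0.587, and endothelial markers to 0.198 and 0.151. With 1 library per group no test between groups was possible and no difference has a replicate check. In bulk RNA, fewer cells with a transcript and less of it per cell cannot be told apart.

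Levels are given by 3 measures, all on the FPKM scale. Summed FPKM adds the coding transcripts of a gene and the stranded assembled transcripts that share an intron with them. Estimated fragments turns each of those values into a number of fragments and divides by the gene's longest annotated transcript, so that a short transcript does not weigh more than its fragments. The fragments over the exons, a measure chosen after the data were seen, takes every transcript in the file, assigned to the gene or not and of any strand, and counts the part of it that lies in the gene's annotated exons. The words rose and fell are kept for genes past a rule of size: at least 1 FPKM in the higher library, a log2 ratio of at least 1 in size with a pseudocount of 1, and intervals that do not overlap. Log2 ratios are knockdown over control, and the pseudocount makes them understate changes of low genes. All positions of genes and transcripts are those of the deposited files.

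The chromosome 19 ZNF genes were expressed at low levels in both libraries. Of the 241 members, 114 (47.3%) were at 1 FPKM or more in both libraries, against 54.9% of all coding genes and 67.7% of the 257 ZNF genes of other chromosomes. Another 86 were lower or reached 1 FPKM in only 1 library, and 41 (17.0%) were listed at 0 in both. Among the 114, the median summed FPKM was 2.58 in the shLacZ library and 3.12 in the shPSPC1 library, whereas the median of all coding genes past the same limit was 9.23 and 9.30. A mean of 10 FPKM or more was reached by 6 members only.

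ZNF146 was by far the most abundant member. Its protein consists almost entirely of zinc fingers and lacks a KRAB domain. It lies on the plus strand from 36705504 to 36729676 and stood at 56.5 ± 1.35 FPKM in the shLacZ library and 59.2 ± 1.33 in the shPSPC1 library (log2 ratio 0.07). The signal was spread over 3 annotated transcripts in both libraries, the largest at 33.6 and 33.0 FPKM. ZNF565, which begins on the opposite strand within the start of ZNF146, was listed at 0 in both libraries. By the fragments over the exons, which count transcripts of any strand, it stood at 7.12 and 7.47 FPKM. Without strand, reads of these overlapping genes cannot be told apart.

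The next members by mean FPKM were ZNF787 (21.5 ± 1.04 in the shLacZ library and 23.7 ± 0.969 in the shPSPC1 library), ZNF428 (16.2 ± 0.965 and 14.4 ± 0.904) and ZNF121 (10.9 ± 0.612 and 12.3 ± 0.652). These are, like ZNF146, members in whose protein no KRAB motif was found. ZNF121 held an assembled transcript of 6970 bases in the control file and of 6966 in the knockdown file, against 1729 annotated bases. It ran past the annotated end of the gene on the minus strand (9676292), to 9671051 and 9671055, and carried 6.97 and 7.63 FPKM. The longer form was thus recorded in both libraries at like levels.

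ZNF576 stood at 5.94 and 17.2 FPKM, ZNF302 at 11.7 and 10.1, ZNF226 at 7.35 and 10.9, ZNF460 at 7.05 and 11.1, ZNF574 at 8.85 and 9.30, and ZNF766 at 7.97 and 9.90 (control and knockdown). In ZNF576, 12.3 FPKM of the knockdown value belonged to an assembled transcript of 439 bases seen in that file only, and by estimated fragments the log2 ratio of ZNF576 was -0.01. In ZNF302, a 1-exon assembled transcript of 6.68 FPKM and a transcript of the minus strand at 2.03 FPKM lay over the exons in the knockdown file without being counted to the gene, and the log2 ratio was -0.19 by summed FPKM and 0.50 by the fragments over the exons. In ZNF766, 6.61 of the 9.90 FPKM belonged to an assembled transcript of 2832 bases seen in the shPSPC1 file only, while its annotated transcript stood at 7.97 and 3.30 FPKM.

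**Figure D1:**
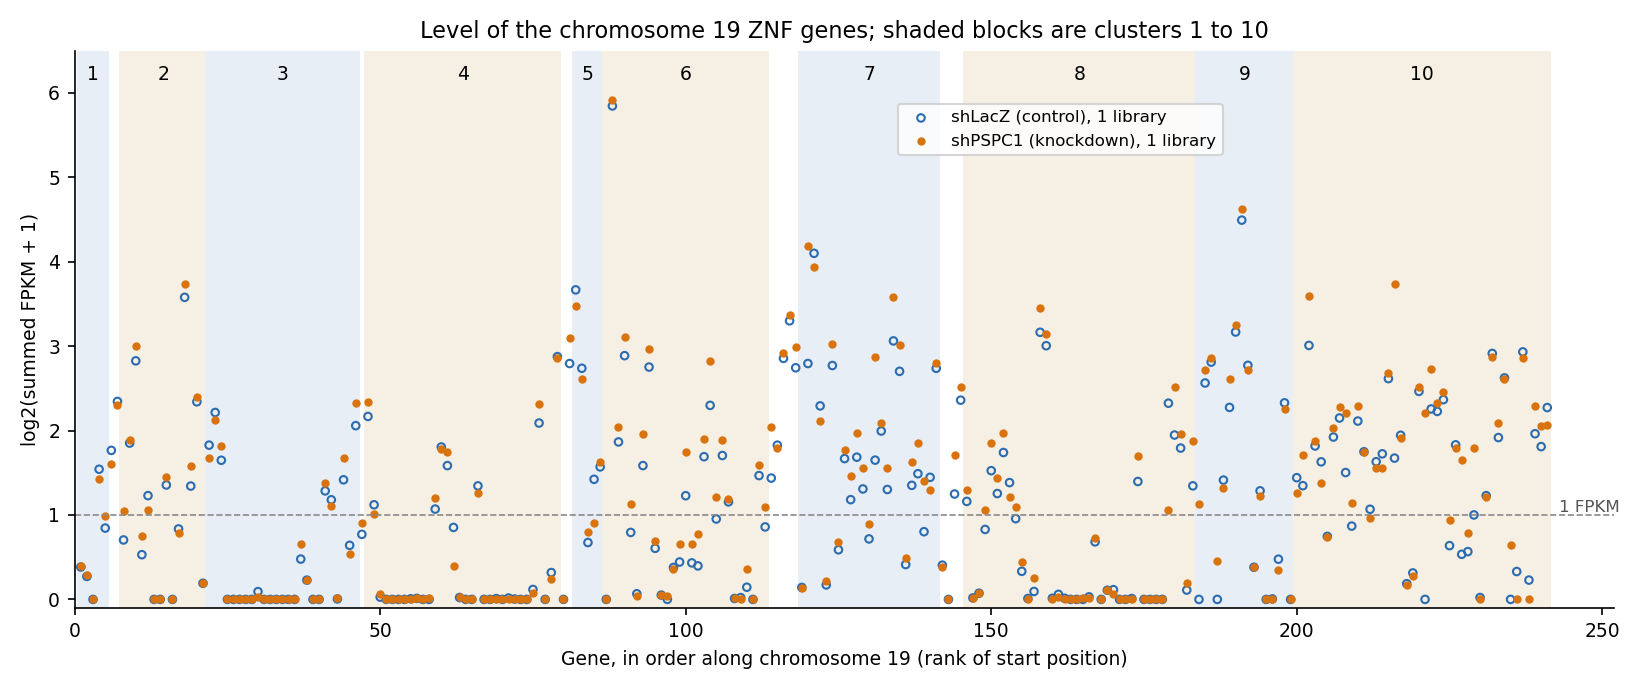
Each point is 1 of the 241 genes in order of start position along chromosome 19 (horizontal axis, rank), with its level as log2(summed FPKM + 1) on the vertical axis. Open circles are the shLacZ library and filled circles the shPSPC1 library, and shaded blocks are the 10 clusters. Runs of genes at 0 stand in clusters 3, 4 and 8, and ZNF146 in cluster 6 is the highest point.

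By position, 227 members fell into 10 clusters, each a run of at least 5 members whose neighbouring starts lie within 500000 bases, and 14 were scattered. The share of members at 1 FPKM or more in both libraries differed widely between clusters. It was 73.9% (17 of 23) in the cluster from ZNF575 to ZNF180 (44037340 to 45004574) and 69.0% (29 of 42) in the cluster from ZNF264 to ZNF446 at the end of the chromosome (57702868 to 58992597). It was only 8 of 32 in the cluster from ZNF101 to ZNF254 (19779663 to 24312654) and 7 of 25 in that from ZNF653 to ZNF791 (11594242 to 12740676). Genes listed at 0 in both libraries numbered 13 and 12 in the latter pair, and 0 in the former pair.

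The most abundant member was ZNF57 in the first cluster (1.91 ± 0.272 FPKM in the control, 1.69 ± 0.254 in the knockdown), ZNF121 in the second, ZNF791 in the third (3.16 ± 0.321 and 4.01 ± 0.359), ZNF254 in the fourth (6.34 ± 0.343 and 6.27 ± 0.339) and ZNF302 in the fifth. It was ZNF146 in the sixth, ZNF428 in the seventh by its mean over libraries, ZNF766 in the eighth, ZNF787 in the ninth and ZNF460 in the tenth. The leading member of the first cluster was thus lower than the leaders of the others, and ZNF146 stood apart at the other end.

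Silent members lay side by side. Of the 241 members, 74 (30.7%) were under 0.1 FPKM in both libraries, a share like that of all coding genes (30.8%), and 47 of the 74 lay in 6 unbroken runs of 4 or more neighbouring members. The longest run held 12 members from ZNF441 to ZNF625 (11877815 to 12267546), with 0.0658 FPKM as the highest value in either library. The gene before it, ZNF823, stood at 2.13 and 2.51 FPKM, and the gene after it, ZNF136, at 0.392 and 0.574. Runs of 9 members reached from ZNF506 to ZNF85 and from ZNF208 to ZNF91, the latter bounded by ZNF43 (1.54 and 1.40 FPKM) and ZNF675 (3.26 and 3.96). Runs of 7, 6 and 4 members lay in the cluster from ZNF175 to ZNF331.

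ZNF91 and ZNF93, which are known to silence SVA and LINE-1 retrotransposons, lay in these runs. ZNF91 stood at 0.0850 ± 0.0340 FPKM in the shLacZ library and 0.0535 ± 0.0268 in the shPSPC1 library, and ZNF93 was listed at 0 in both. Of the 41 members listed at 0 in both libraries, 38 also had no listed transcript above 0 FPKM, of any strand, over their exons. Fragments that entered no listed transcript cannot be seen in these data. The other 3 were ZNF565 and both read-through genes, whose exons overlap those of other genes. ZNF43, which bounds a run, had all its annotated transcripts listed at 0, and its value came from assembled transcripts that covered 0 of the 4859 bases of its last exon.

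Promoters are shown for the range of their density of CG, the dinucleotide at which DNA is methylated in human cells. RefSeq windows of 300 bases (250 before and 50 after the start, GRCh38.p14) were found for 211 of the 241 members. The 250 bases before the start are printed for the most abundant member and for 2 members listed at 0 in both libraries, with each CG in capitals, 5′ to 3′ on the gene's strand. They lie at chr19:36214856-36215105 on the plus strand for ZNF146, at chr19:53254824-53255073 on the minus strand for ZNF677, and at chr19:19900696-19900945 on the plus strand for ZNF93.
ZNF146: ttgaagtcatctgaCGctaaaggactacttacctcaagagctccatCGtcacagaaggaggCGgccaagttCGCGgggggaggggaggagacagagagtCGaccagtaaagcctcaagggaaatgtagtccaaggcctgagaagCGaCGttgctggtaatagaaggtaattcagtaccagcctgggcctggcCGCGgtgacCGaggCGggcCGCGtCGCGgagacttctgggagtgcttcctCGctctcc
ZNF677: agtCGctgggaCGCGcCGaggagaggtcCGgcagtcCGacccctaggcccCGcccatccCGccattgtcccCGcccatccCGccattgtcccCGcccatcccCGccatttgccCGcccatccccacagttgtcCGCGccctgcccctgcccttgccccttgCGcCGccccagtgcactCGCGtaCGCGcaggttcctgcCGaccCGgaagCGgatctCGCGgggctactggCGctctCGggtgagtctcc
ZNF93: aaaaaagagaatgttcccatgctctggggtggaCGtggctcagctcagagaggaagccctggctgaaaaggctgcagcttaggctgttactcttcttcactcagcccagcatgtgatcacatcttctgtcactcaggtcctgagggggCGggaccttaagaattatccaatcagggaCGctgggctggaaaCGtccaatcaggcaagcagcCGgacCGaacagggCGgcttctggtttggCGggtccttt
The printed stretch holds 17 CG in ZNF146, 28 in ZNF677 and 8 in ZNF93. ZNF677 and ZNF93 are both listed at 0 and hold 34 and 10 CG in the full window.

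Over each full window, the median number of CG was 21 in 104 members at 1 FPKM or more in both libraries and 14 in 33 members listed at 0 in both. In all coding genes the same medians were 27 and 5. At least 10 CG were present in 103 of 104 windows of the expressed members and 25 of 33 (75.8%) of those of the silent members, against 91.3% and 36.7% of windows of all coding genes at those levels. The windows of silent members thus lay nearer to those of expressed members than the windows of silent coding genes lay to those of expressed coding genes. CG (the same on both strands) was present at least 1 time in 98.1% of all windows and in each of the 211 windows of members. Methylation was not measured.

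**Figure D2:**
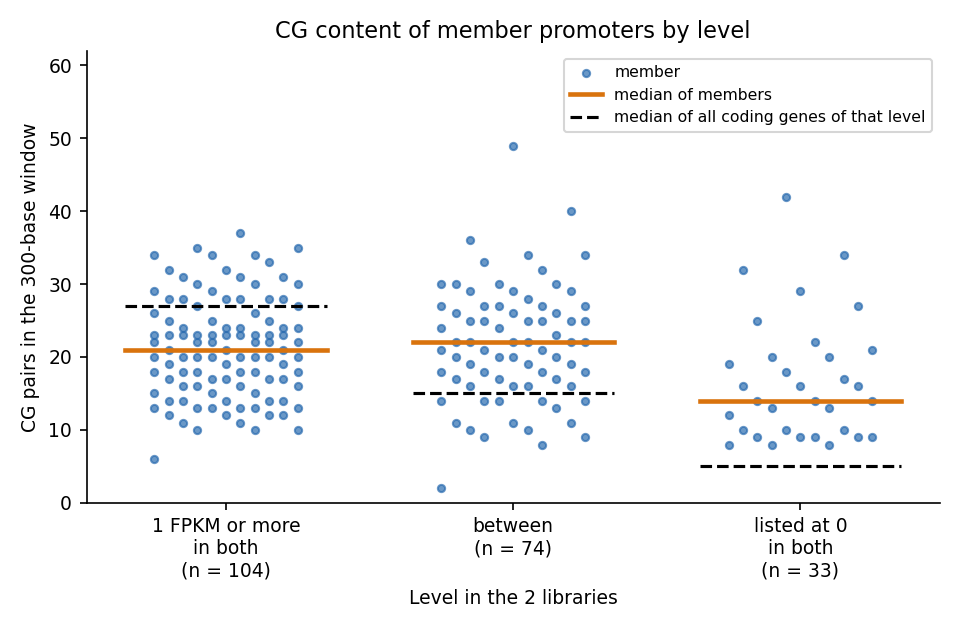
The number of CG dinucleotides in the 300-base promoter window (vertical axis) is plotted for 211 members in 3 classes of level (horizontal axis). Solid lines are medians of members (21, 22 and 14) and broken lines are medians of all coding genes of the same class (27, 15 and 5).

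Few members passed the rule of size. By summed FPKM and by estimated fragments together, 5 of the 241 members rose (ZNF224, ZNF628, ZNF211, ZNF586 and ZNF418) and 1 fell (ZNF845). Over all 18813 coding genes 99 rose (0.526%) and 116 fell (0.617%). Summed FPKM alone gave 6 higher members and 1 lower (backgrounds 0.872% and 1.00%), and estimated fragments alone 7 and 2 (0.813% and 0.893%). When all fragments over the exons were counted, 1 member (ZNF586) was higher and 0 were lower, against 43 (0.229%) and 77 (0.409%) of all coding genes. The calls of 5 of the 6 members were therefore lost when every transcript over the gene was counted, and in 2 of them the direction turned.

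ZNF224, which encodes a KRAB protein known as a repressor of the aldolase A gene and a partner of WT1, has 1 annotated transcript of 2483 bases on the plus strand, from 44598482 to 44612479. It stood at 2.14 ± 0.312 FPKM in the shLacZ library (279 fragments) and 6.30 ± 0.436 in the shPSPC1 library (834 fragments), a log2 ratio of 1.22. In the control file a 1-exon transcript assembled on the minus strand, from 44610655 to 44614334, lay over 1825 bases of its last exon at 3.78 FPKM, and the knockdown file had none there. With that transcript counted, ZNF224 stood at 4.98 ± 0.385 and 6.30 ± 0.436 FPKM, with intervals still apart and a log2 ratio of 0.29 (0.11 to 0.47).

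ZNF845 was the reverse case. Its annotated transcript (53837002 to 53858122, plus strand) stood at 4.01 ± 0.262 FPKM in the shLacZ library (935 fragments) and 1.09 ± 0.176 in the shPSPC1 library (258 fragments), a log2 ratio of -1.26. In the knockdown file a 1-exon transcript without a strand, from 53853940 to 53857924, lay in its last exon at 3.21 FPKM. Counted together, ZNF845 stood at 4.01 ± 0.262 and 3.95 ± 0.299 FPKM (log2 ratio -0.02), so that the libraries did not differ beyond the intervals.

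ZNF628 was listed at 0 in the control and at 1.19 ± 0.151 FPKM in the knockdown. The control file held an assembled transcript of 2 exons over the same span (55987699 to 55995854) at 0.929 FPKM that shares no coding intron with the gene. By the fragments over the exons, ZNF628 stood at 0.908 ± 0.132 and 1.19 ± 0.151 FPKM (log2 ratio 0.20), and the intervals lay just apart. In ZNF224, ZNF845 and ZNF628 a transcript not counted to the gene lay over its exons in 1 file. With that transcript counted, none of these genes passed the rule of size. Why such transcripts were listed in 1 file only was not tested.

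In the other 3 called members a long assembled transcript stood in 1 file. ZNF211 held 4 annotated coding transcripts summing to 2.19 ± 0.347 FPKM in the control. In the knockdown file these were listed at 0, and an assembled transcript that starts at the same base (58144535) and spans 213017 bases, to 58357551, was listed at 12.3 ± 0.418 FPKM. It covers 246 bases of the exons of ZNF211 and 0 bases of the last exon. The log2 ratio of ZNF211 was 2.06 by summed FPKM, and by the fragments over the exons it turned to -0.81, with 2.81 FPKM in the shLacZ library and 1.18 in the shPSPC1 library. That knockdown value is a share by length of the long transcript, with an error of sharing that its interval does not cover.

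ZNF586, from 58281020 to 58291984, showed the mirror image in the control file. There its annotated transcripts were listed at 0, and an assembled transcript from 58281294 to 58357762 was listed at 10.0 FPKM. That transcript covers 127 bases of the exons of ZNF586 and shares no coding intron with it. In the knockdown, 2 annotated transcripts of ZNF586 stood at 1.05 and 2.57 FPKM. Counted over the exons ZNF586 stood at 0.588 in the shLacZ library and 3.48 in the shPSPC1 library (log2 ratio 1.49). The control value is a share by length of the long transcript, and its interval does not cover the error of that sharing. The long transcripts of ZNF211 and ZNF586 end within the same stretch of the chromosome, and each stood in the file in which the annotated transcripts of its gene were listed at 0.

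ZNF418, on the minus strand from 58433252 to 58446740, stood at 0.448 ± 0.0950 FPKM in the control through its annotated transcript. In the knockdown file that transcript was listed at 0, and an assembled transcript of 10195 bases from 58411717 to 58446744 was listed at 2.15 ± 0.135 FPKM. It covers 454 bases of the exons of ZNF418 but 4312 bases of those of its neighbour ZNF417. The log2 ratio of ZNF418 was 1.12 by summed FPKM and turned to -0.19 by the fragments over the exons. The knockdown value of ZNF418 over the exons is likewise a share by length of the long transcript. ZNF417, for which the annotated transcript stood at 2.56 and 2.48 FPKM, had a log2 ratio of 0.63 by the fragments over the exons, in which the same long transcript was counted. ZNF417 was chosen for naming after its values were seen.

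**Figure D3:**
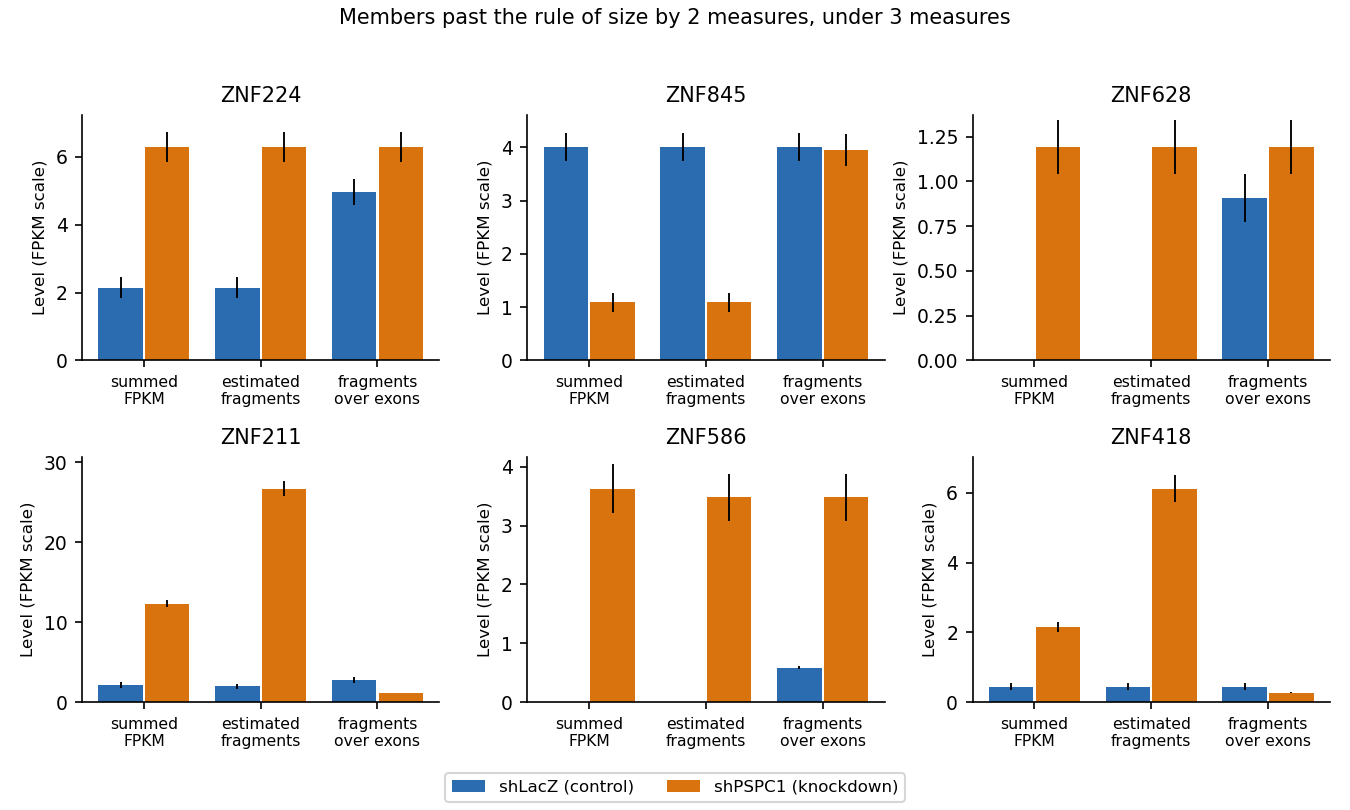
The 6 members past the rule of size are shown by summed FPKM, by estimated fragments and by the fragments over the exons (horizontal axis), with the level on the FPKM scale on a linear vertical axis from 0. Blue bars are the shLacZ library and orange bars the shPSPC1 library, and error bars are half-widths of 95% intervals within a library. Under the last measure the gap between the libraries closes in ZNF845, turns in ZNF211 and ZNF418, and is narrower but present in ZNF224, ZNF628 and ZNF586.

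The same held for most members with the widest ratios by estimated fragments. Among members at 1 FPKM or more in both libraries, those with the largest positive ratios were ZNF211, ZNF224, ZNF460 (1.21), ZNF546 (1.02) and ZNF765 (0.57). Over the exons, ZNF460 had a log2 ratio of 0.22, ZNF546 of 0.17 and ZNF765 of 0.07. ZNF460 carried an assembled transcript of 18798 bases in the knockdown file at 4.83 FPKM, which starts at 57702868, the start of ZNF264. The control file held a like one of 17463 bases at 1.55 FPKM and another of 17298 bases, at 2.36 FPKM, that was not counted to ZNF460.

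On the other side were ZNF845, ZNF446 (-1.11), ZNF8 (-0.48), ZNF283 (-0.38) and ZNF570 (-0.31). Over the exons, ZNF446 had a log2 ratio of -0.10, ZNF8 of -0.02, ZNF283 of 0.15 and ZNF570 of 0.42. ZNF446 shared an assembled transcript of 9508 bases with its neighbour ZNF324B in the control file, at 1.02 FPKM, and no such transcript in the knockdown file. Of the 114 members, 4 were at least 1.5 times higher and 2 at least 1.5 times lower by estimated fragments, beside 1.94% and 3.35% of all coding genes. Summed FPKM gave 7 and 1, beside 3.32% and 4.36%. Counted over the exons 1 was higher (ZNF417, background 0.688%) and 1 lower (ZNF211, background 2.25%).

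Below the rule of size, the expressed chromosome 19 ZNF genes were shifted upward by a small amount as a group. By the fragments over the exons, 87 of the 114 members (76.3%) had a log2 ratio above 0, against 51.8% of 10319 coding genes at 1 FPKM or more in both libraries. The median log2 ratio was 0.12, and that of all coding genes was 0.01. The middle 50% of members, by quartiles, lay between 0.01 and 0.22. By summed FPKM the median was 0.13 and 79 members (69.3%) were above 0, and by estimated fragments the median was 0.11 and 76 members (66.7%) were above 0. The corresponding shares of all coding genes were 51.0% by both.

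The shift was seen in single genes beyond their intervals. Over the exons, 35 of the 114 members (30.7%) were higher in the knockdown with intervals apart, and 3 (2.63%) were lower. Among all coding genes at this level these shares were 22.7% higher and 22.5% lower. With a mean under 10 FPKM, 32 of 108 members were higher and 3 lower with intervals apart, against 974 (18.1%) and 976 (18.2%) of 5373 coding genes. These intervals hold no variation between cultures, and with 1 library per group the share of it in the shift was not tested.

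The shift was present at each level of expression. Between 1 and 2 FPKM, 21 of 30 members were above 0, against 52.0% of coding genes in that range, and their median was 0.11 against 0.01. Between 2 and 4 FPKM 35 of 45 members were above 0, between 4 and 8 FPKM 21 of 28, and from 8 FPKM up 10 of 11. The medians of members in these ranges were 0.13, 0.10 and 0.16. In each range the median of all coding genes was 0.01.

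It was also present among genes whose measures were close. For 72 of the 114 members the 3 log2 ratios lay within 0.1 of each other. Of these 72, 57 (79.2%) were above 0, with a median of 0.13, and 24 were higher with intervals apart while 1 was lower. Among the 6988 coding genes of the same kind 51.6% were above 0, with 1583 higher and 1604 lower. With the members past the rule of size left aside, 86 of 111 members at 1 FPKM or more in both libraries were above 0 by the fragments over the exons, and the median stayed at 0.12. Since 111 of the 114 remained, this step could move the median little and adds no support.

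The ZNF genes of other chromosomes showed a smaller shift in the same direction. Of 174 at 1 FPKM or more in both libraries, 114 (65.5%) had a log2 ratio above 0 by the fragments over the exons, and their median was 0.05. Of 546 other coding genes of chromosome 19, 308 (56.4%) were above 0, with a median of 0.03. The members therefore stood above both sets of genes, each taken whole, those that share the protein family and those that share the chromosome. The expressed ZNF genes of other chromosomes with a KRAB motif came closer to the members, with 53 of 73 above 0 and a median of 0.09. Of the 174, 36 (20.7%) were higher with intervals apart and 17 (9.77%) were lower. No test of these differences was made, since each rests on the same 2 libraries.

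**Figure D4:**
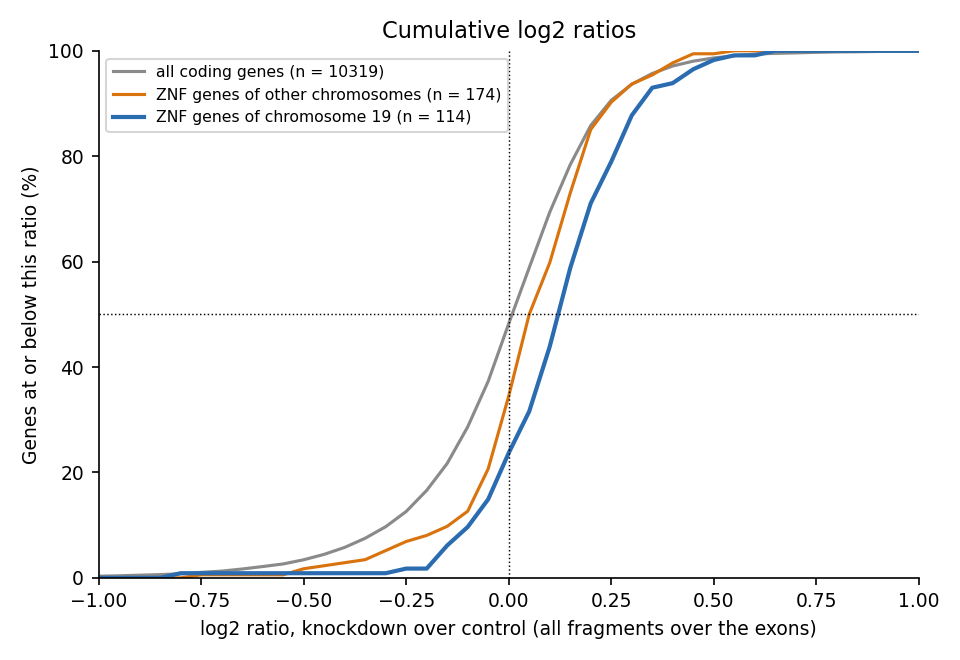
Cumulative share of genes (vertical axis, percent) at or below each log2 ratio of knockdown over control (horizontal axis, fragments over the exons, read at steps of 0.05). The curve of the chromosome 19 ZNF genes (n = 114) lies to the right of those of ZNF genes of other chromosomes (n = 174) and of all coding genes (n = 10319), with medians of 0.12, 0.05 and 0.01.

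The clusters differed in their medians. In the cluster from ZNF565 to ZNF573 (36673187 to 38270230), 11 of 11 expressed members were above 0 by the fragments over the exons. Their median was 0.22, and 6 of them had intervals apart upward. Among all coding genes at 1 FPKM or more in both libraries, 22.7% had intervals apart upward and 22.5% downward. ZNF420 in this cluster, which encodes a KRAB protein known as an inhibitor of p53 activity, stood at 1.34 ± 0.194 and 2.36 ± 0.287 FPKM, with log2 ratios of 0.52, 0.25 and 0.43 by summed FPKM, estimated fragments and fragments over the exons.

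In the cluster from ZNF575 to ZNF180 the median was 0.19 and 15 of 17 expressed members were above 0. Intervals lay apart upward in 8 and downward in 0, beside 22.7% and 22.5% of coding genes at 1 FPKM or more in both libraries. ZNF226 there had 2 annotated transcripts above 0 in both libraries, of 825 and 2567 bases. The shorter stood at 3.89 and 6.0 FPKM and the longer at 3.46 and 4.94 FPKM, so that both were higher in the knockdown. The log2 ratio of ZNF226 was 0.52 by summed FPKM and 0.44 by the fragments over the exons.

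In the cluster from ZNF175 to ZNF331 the median was 0.18 and 11 of 12 expressed members were above 0. ZNF331, an imprinted gene at the far edge of this cluster, stood at 1.54 ± 0.246 FPKM in the shLacZ library and 2.68 ± 0.255 in the shPSPC1 library, and its intervals did not overlap. Each of its 3 transcripts above 0 was higher in the knockdown, at 0.656 and 1.22, 0.453 and 0.860, and 0.431 and 0.605 FPKM. Its log2 ratio was 0.54 by summed FPKM, 0.53 by estimated fragments and 0.49 by the fragments over the exons.

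The remaining clusters had medians between 0.06 and 0.14 by the fragments over the exons, apart from the first, in which ZNF57 was the only expressed member (-0.11). All 7 expressed members of the cluster from ZNF414 to ZNF846 were above 0, with a median of 0.12. In the largest cluster, from ZNF264 to ZNF446, 19 of 29 were above 0 with a median of 0.06. Intervals lay apart upward in 6 and downward in 2, beside 22.7% and 22.5% of coding genes at 1 FPKM or more in both libraries. The upward share of this cluster did not exceed that of all coding genes. Of the 3 expressed members from ZNF302 to ZNF792, the median was -0.13 by summed FPKM and 0.07 by the fragments over the exons, and ZNF302 has the 1-exon transcript described above. No cluster with 5 or more expressed members had a negative median by any of the 3 measures.

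**Figure D5:**
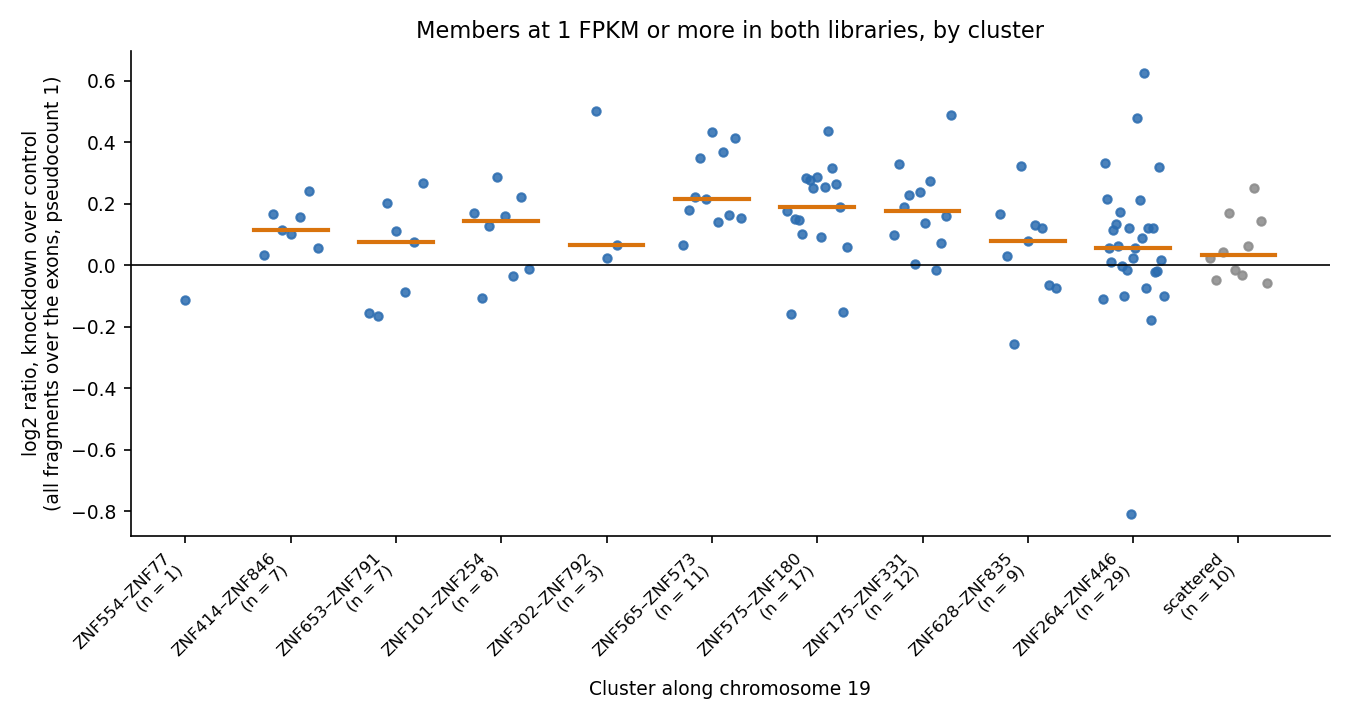
Each point is a member at 1 FPKM or more in both libraries, placed by cluster in order along chromosome 19 (horizontal axis), with its log2 ratio of knockdown over control by the fragments over the exons on the vertical axis. Horizontal bars are medians of clusters with more than 1 such member. All 11 points of the cluster from ZNF565 to ZNF573 lie above 0, and the lowest point of the plot is ZNF211 at -0.81.

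By protein class, a KRAB A box motif was found in the proteins of 202 of 239 members, read-through genes left out. Of the 202, 92 (45.5%) were at 1 FPKM or more in both libraries and 37 were listed at 0 in both. Of the 37 without the motif, 22 (59.5%) were at 1 FPKM or more and 2 were listed at 0. The proteins held a median of 13 C2H2 fingers with the motif and 9 without it, and ZNF208 held the most, 36. Members at 1 FPKM or more and members listed at 0 had the same median of 12 fingers.

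Both protein classes had positive medians. By the fragments over the exons, 70 of 92 expressed KRAB members were above 0 with a median of 0.13, and 17 of 22 members without the motif with a median of 0.10. By summed FPKM the medians were 0.13 and 0.07. Among ZNF genes of other chromosomes, those with the motif had a median of 0.09 over 73 expressed genes and those without had 0.03 over 101.

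Members with known roles mostly differed little between the libraries. ZNF274, which brings SETDB1 to the finger-coding exons of ZNF genes themselves, stood at 6.54 ± 0.724 FPKM in the shLacZ library and 6.33 ± 0.518 in the shPSPC1 library (log2 ratio -0.04, and -0.18 by the fragments over the exons, with bounds of -0.41 and 0.06). ZNF473, a factor of histone pre-mRNA processing that acts with the U7 particle, stood at 4.13 ± 0.311 and 4.71 ± 0.343 FPKM. Its log2 ratio was 0.15 by summed FPKM and -0.06 by the fragments over the exons, so that its direction depended on the measure.

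ZNF304, a KRAB protein known to recruit corepressors to tumour suppressor genes in colorectal cancer cells, stood at 2.09 ± 0.187 and 1.60 ± 0.181 FPKM (log2 ratio -0.25), but at 0.01 by the fragments over the exons. ZNF264, beside the imprinted PEG3 region, stood at 1.72 ± 0.101 and 1.39 ± 0.0905 FPKM, with log2 ratios of -0.18 and, by the fragments over the exons, -0.11 (-0.21 to -0.01). ZNF264 was thus lower by every measure. ZNF8 stood at 5.17 ± 0.434 and 5.13 ± 0.419 FPKM, and ZNF444, a SCAN domain protein without a KRAB motif, at 5.84 ± 0.663 and 5.59 ± 0.525 (log2 ratio -0.05, but 1.31 by annotated transcripts alone).

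Members studied as methylated genes in tumours were low in both libraries. ZNF382 stood at 0.0472 FPKM in the shLacZ library and 0.0266 in the shPSPC1 library, ZNF154 at 0.138 and 0.122, ZNF671 at 0.243 and 0.213, and ZNF582 at 0.302 and 0.302. ZNF677, whose promoter is printed above, was listed at 0 in both. ZNF568, known in the mouse as a repressor of a placental Igf2 transcript, stood at 0.359 ± 0.103 and 0.577 ± 0.115 FPKM. None of these reached 1 FPKM in either library.

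Members with tissue-restricted roles were at or near 0. ZNF536, a neural gene, was listed at 0 in the control and at 0.00734 FPKM in the knockdown, ZNF541, a gene of meiosis, at 0 and 0.00392, and ZNF808, a KRAB gene of pancreas development, at 0 and 0.0111. ZNF296, known from pluripotent cells, stood at 0.325 ± 0.130 and 0.308 ± 0.123 FPKM. The last is the only one of the 4 with an interval above 0 in both libraries.

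None of the listed partners through which KRAB proteins act passed the rule of size by summed FPKM and estimated fragments together. Of 42 listed genes 41 were found and 40 were at 1 FPKM or more in both libraries, and 0 were higher and 0 lower by both measures, against 0.526% and 0.617% of all coding genes. By estimated fragments alone 1 was lower, PIAS1, a SUMO ligase, with a log2 ratio of -1.46 against 0.01 by summed FPKM and 0.05 over the exons. Their median log2 ratio was 0.02 by summed FPKM and 0.00 by the fragments over the exons. TRIM28, the scaffold that binds the KRAB domain, was the most abundant, at 133 FPKM in the shLacZ library and 109 in the shPSPC1 library (log2 ratio -0.28 by both measures). Among other abundant genes of the list, RBBP7, a histone-binding subunit of NuRD, stood at a summed 91.2 and 103.5 FPKM. CBX3, an HP1 protein, stood at 81.6 and 97.3, and SUMO2 at 84.3 and 70.9. RBBP7 and SUMO2 kept their direction by each measure. For CBX3 the log2 ratio was 0.25 by summed FPKM, 0.04 by estimated fragments and -0.01 by the fragments over the exons. The TRIM28 level was lower while the members' median was higher, and a link between these values was not tested.

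The share of the members' signal in assembled transcripts also differed between files. In the control file 90 assembled transcripts above 0 belonged to 65 members and held 15.6% of the members' summed 497 FPKM. In the knockdown file 100 belonged to 75 members and held 19.6% of 584 FPKM. By the fragments over the exons the sums were 527 and 587 FPKM. Paralogs in these clusters share near-identical finger exons, and the sources used here do not say how fragments that fit several of them were assigned. Levels of members, above all single low ones, carry that uncertainty. Ratios of neighbouring paralogs may thus not be independent of each other, and counts of members above 0 or with intervals apart carry it too.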

How the data were processed

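RNA-seq of 1 shLacZ and 1 shPSPC1 library of A549 cells was used. The submitters' processing notes name Cufflinks 2.1.1, TopHat2 2.0.7 and CASAVA 1.8.2. Each deposited file lists annotated and assembled transcripts with FPKM, its 95% bounds and coverage, all computed by the authors per the file headers (attribute names). The genome build, strand setting and handling of multiply mapped fragments are not given in the sources used here.

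From these files, coding transcripts were joined to genes with a RefSeq table, else by gene identifiers in the files or shared introns. In each file 301 coding rows matched no gene. Fragments per transcript were derived from the deposited intervals, which gave numbers whole within 0.02 for 94.2% and 94.5% of transcripts alone at their locus. Estimated fragments and fragments over the exons were computed for all 18813 coding genes, with Python 3.11.15, numpy and pandas. Since no protein table was given, C2H2 fingers and the KRAB A box (8 positions, up to 2 mismatches) were searched in translated GENCODE 29 coding sequences.

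The members and lists were chosen with earlier results of these data known. Named genes are the members past the rule of size, the 10 most abundant, the most abundant of each cluster, the 5 largest ratios in each direction by estimated fragments, members at 1 FPKM or more in 1 library and listed at 0 in the other, and listed genes with known roles. Alternatives were other measures, a pseudocount of 0.1, minima of 0.5 and 5 FPKM, rescaling and a wider cluster gap. Values of 2 listed genes that are not members are not reported here.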

Additional observations from a re-analysis of the deposited data

How the results depend on the processing

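No paired analysis was possible because each group has 1 library. The median log2 ratio of members at 1 FPKM or more in both libraries was 0.13 and lay between 0.08 and 0.16 under 10 alternatives. The count of members past the rule of size was less stable. Of 5 higher, 2 were left with a minimum of 5 FPKM and 1 by the fragments over the exons. Of 1 lower, 0 were left under both of these, and there were 2 by estimated fragments alone and 4 by annotated coding transcripts alone. Of 4 members at least 1.5 times higher there were 7 by summed FPKM, 1 with a minimum of 5 FPKM and 1 over the exons, and of 2 lower there were 1, 0 and 1. The direction turned for ZNF211 (-1.67 by annotated transcripts alone and -0.81 over the exons) and ZNF418 (-0.53 and -0.19), and the median of the cluster from ZNF302 to ZNF792 went from -0.13 to 0.066 over the exons. Among 38 named genes without a call, 11 changed sign under at least 1 measure and moved by more than the half-width of their interval. Among them were ZNF766 (0.28 to -1.06) and ZNF444 (-0.05 to 1.31) by annotated transcripts alone and ZNF302 (-0.19 to 0.50) over the exons. Others ended near 0, such as ZNF304 (-0.25 to 0.01 over the exons) and ZNF576 (1.39 to -0.01 by estimated fragments). Annotated transcripts alone and the fragments over the exons change which transcripts are counted. Estimated fragments keeps the same transcripts and changes their weight, as in ZNF570 (0.04 to -0.31). The fragments over the exons, the limit of 10 FPKM and the choice of genes with close measures were added after the data were seen. With 1 library per group, depth sets the intervals only.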
